A study of Mus musculus with 127 samples.

Results

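The cytosolic ribosomal protein genes were described across single mouse bone marrow cells. Members were all genes of the deposited table whose symbol starts with Rpl or Rps followed by a digit, together with Rplp0, Rplp1, Rplp2 and Rpsa, leaving out the Rps6k kinases and rows named as pseudogenes (-ps). The rule gave 87 of 23946 genes, 52 of the large subunit (Rpl and Rplp) and 35 of the small subunit (Rps and Rpsa) by name. Of these, 77 are the standard ribosomal proteins and 10 are paralogs or like-named genes, among them Rps19bp1, which encodes a binding partner of Rps19 and not a part of the ribosome. The rule does not reach genes of the ribosome with other names, such as Fau and Gnb2l1.

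The cells came from the bone marrow of wild-type C57BL/6 mice and were selected on beads by the receptor CD117 (Kit), then sorted, captured on the Fluidigm C1 system and sequenced 1 by 1. The labels call all of them CD11b+ GMP-P cells and divide them into a Ly6g high gate (46 cells), a Ly6g low gate (41 cells) and a gate named CD11b+ alone (40 cells). CD11b is a surface integrin of myeloid cells, and Ly6g is a surface protein of cells on the way to neutrophils. Age, sex and the number of animals are not in the labels, so each gate counts as a single sample, gates cannot be compared by a test and every difference describes these cells only. The labels name no capture plate or run, and the cell names of the CD11b+ gate have another form than those of the Ly6g gates, so gate and any such batch cannot be told apart. A deposited file gives every cell 1 of 11 class names of the authors, by a method not known here, so differences between classes are descriptions as well.

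A ribosome is built from ribosomal RNA and many ribosomal proteins, which are needed in similar amounts, so its protein genes are usually expressed together and at high level. Dividing progenitors need many new ribosomes, and neutrophil precursors are known to wind down ribosome production as they fill with granule proteins and leave the cell cycle. Many ribosomal protein messages begin with a run of pyrimidines, the 5′ terminal oligopyrimidine tract, through which their translation follows nutrient and growth signals.

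Promoter sequence from RefSeq on the build GRCm38.p6 (250 bases before and 50 after each annotated start) was found for 66 of the 87 members, in 78 promoters. The sequences below show the pyrimidine run CTTTCC (capitals) at 4 members, in the 15 bases before and the 15 bases from the annotated start on, since it was the most frequent in member promoters of the 3 motifs searched; the authors' build was mm9, and no coordinate below comes from their files.
Rpl18, chr7:45718056-45718085, plus strand: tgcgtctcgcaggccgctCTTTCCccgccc
Rpl28, chr7:4792950-4792979, plus strand: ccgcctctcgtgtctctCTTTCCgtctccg
Rpl35, chr2:39005117-39005146, minus strand: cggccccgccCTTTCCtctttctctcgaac
Rps10, chr17:27635230-27635259, minus strand: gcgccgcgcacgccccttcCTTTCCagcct
Rps27 and its copy Rps27rt are shown because their TPM cannot be kept apart with certainty; capitals mark the 24-base stretch that the windows, from 5 bases before the start on, have in common.
Rps27, chr3:90213624-90213653, minus strand: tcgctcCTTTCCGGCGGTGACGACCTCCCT
Rps27rt, chr9:114982715-114982744, minus strand: ccttgCTTTCCGGCGGTGACGACCTCCCTa

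Within 50 bases either side of the start, on the gene's own strand, CTTTCC stood in 30.8% of the 78 member promoters and in 4.69% of all 32851 promoters. On both strands of the whole 300 bases the shares were 51.3% and 26.6%. The run lay within 15 bases of the start in 11 members. Besides the 4 shown for it, these were Rpl13a, Rpl15, Rpl35a, Rpl38, Rpl39l, Rps27 and Rps27rt. CCGGAAG, the core of ETS factor sites, was on either strand of 34.6% of member promoters and 8.86% of all. AAGATGGC, the core of YY1 sites, was in 10.3% and 2.75%. The reverse complement of CTTTCC has the letters GGAA in common with CCGGAAG, so the matches can touch. These matches describe letters in a window and not factor binding.

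Values are TPM, a share of transcripts that corrects for gene length and sums to the same total in every cell. TPM keeps no read depth, so a 0 cannot be separated from a missed molecule, and a gene is called detected in a cell at 1 TPM or more. The cells had a median of 2234 detected genes (821 to 5173). Markers of neutrophil precursors (Ly6g, Camp, Ltf, Ngp, Lcn2, S100a8, S100a9 and Cebpe) took a median of 54.6% of TPM in Ly6g high, 50.6% in Ly6g low and 22.1% in CD11b+ cells, with 8 of 8 detected in each gate. All 6 erythroid markers, among them Klf1 and Hbb-b1, were under 1 TPM in every Ly6g high cell. A wider list of 34 granule and neutrophil genes took a median of 60.9%, 57.6% and 28.7% of TPM in the same order.

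Ribosomal protein genes took a median of 1.95% of TPM in Ly6g high cells, 3.02% in Ly6g low cells and 8.31% in CD11b+ cells. The range over cells was 0.829 to 27.4%, 1.27 to 18.5% and 1.24 to 21.2%, so the 3 gates overlapped over most of their width. The means were 3.32% ± 5.33 (SD, n = 46 cells), 4.93% ± 4.56 (SD, n = 41) and 9.16% ± 6.96 (SD, n = 40). The spread within a gate was as large as the distance between gates, and the distance between the deposited classes was larger. With the granule genes taken out of the total, the medians were 4.81%, 7.49% and 13.8%, in the same order.

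The share divided the cells by class. The 25 cells of the classes not named Myelo (Gran-1, Gran-2, Mono, MDP, HSCP-2, Multi-Lin and Eryth) ranged from 10.1 to 27.4%, with a median of 16%. The 102 Myelo cells ranged from 0.829 to 17.1%, with a median of 2.20%. All 74 cells under 3% were Myelo cells. Of the 27 cells over 10%, 25 were not, and the other two were a Myelo-2 cell of Ly6g low (17.1%) and a Myelo-4 cell of CD11b+ (15%). Granule genes took 22% and 4.85% of TPM in these cells, against a median of 58.6% over the Myelo cells. Without the 3 Myelo cells with under 25% granule TPM the highest Myelo value was 9.34%.

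**Figure D1:**
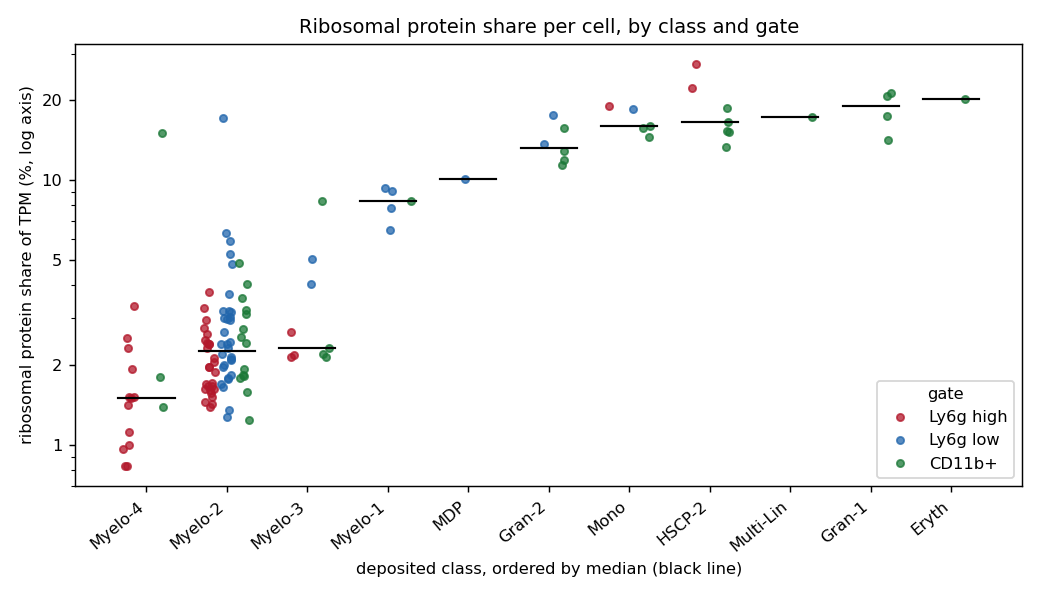
Share of each cell's TPM taken by the 87 ribosomal protein genes (y axis, percent, log scale) in the 11 deposited classes (x axis, ordered by their median, the black line), 1 point per cell coloured by gate. Myelo-4 has the lowest median (1.5%) and the cells of the classes not named Myelo lie between 10.1 and 27.4%.

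The order of the class medians was Myelo-4 (1.5%, n = 16 cells), Myelo-2 (2.26%, n = 72), Myelo-3 (2.32%, n = 9), Myelo-1 (8.32%, n = 5), MDP (10.1%, 1 cell), Gran-2 (13.2%, n = 6), Mono (16%, n = 5), HSCP-2 (16.5%, n = 7), Multi-Lin (17.3%, 1 cell), Gran-1 (19.1%, n = 4) and Eryth (20.1%, 1 cell). Neighbours from Gran-2 to Eryth overlapped: Gran-2 reached 17.6%, Mono ran from 14.6 to 19%, HSCP-2 from 13.3 to 27.4% and Gran-1 from 14.1 to 21.2%. Myelo-2 and Myelo-3 overlapped over almost all of the range of Myelo-3 (2.13 to 8.30%). The 5 Myelo-1 cells stood between these groups, from 6.45 to 9.34%, with 80 to 83 members detected in each.

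The gates held these classes in different numbers. Cells not named Myelo were 3 of 46 in Ly6g high, 4 of 41 in Ly6g low and 18 of 40 in CD11b+, and they gave 44.9%, 29.6% and 78.7% of each gate's summed ribosomal protein TPM. Within Myelo-2 alone the gate medians were 1.96% (n = 27 cells), 2.41% (n = 31) and 2.49% (n = 14). The CD11b+ and Ly6g low ranges within Myelo-2 (1.24 to 4.84% and 1.27 to 17.1%) overlapped.

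Over all 127 cells the share had a Spearman correlation of -0.69 with the granule share and of 0.60 with the number of detected genes. Within Ly6g high, Ly6g low, CD11b+ and Myelo-2 cells the first was -0.30, -0.65, -0.80 and -0.36. The second was 0.34, 0.59, 0.67 and 0.34 in the same order. With granule genes taken out of the total, the correlation with the granule share was -0.0070, -0.49, -0.70 and -0.064. The relation was thus weaker among cells of Ly6g high or Myelo-2 alone. These are descriptions over cells that share gates and a fixed TPM total, in which a large share of 1 set of genes lowers all others. The part of this fixed total in the class and gate differences was not tested beyond the values without granule genes.

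**Figure D2:**
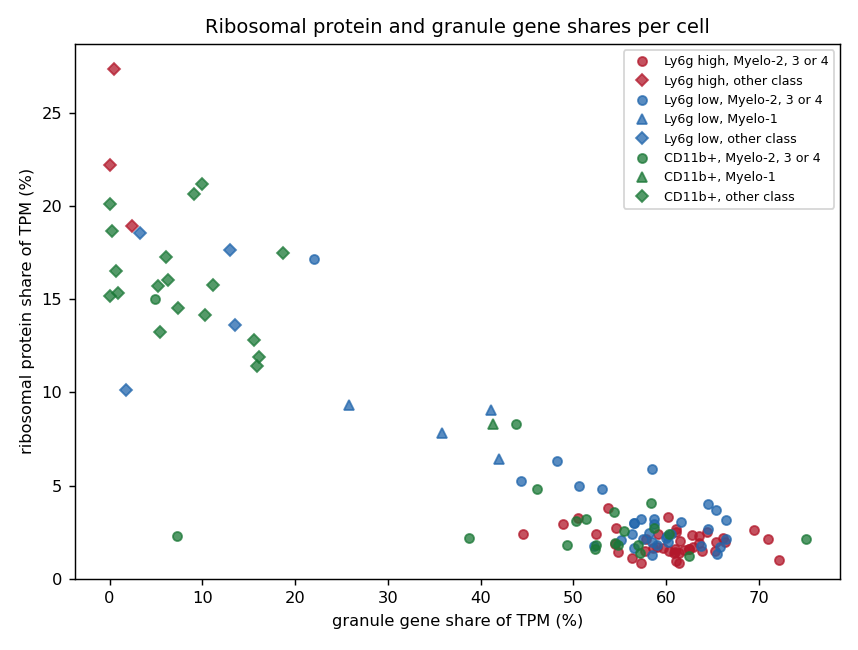
Share of TPM of the ribosomal protein genes (y axis, percent) against the share of the 34 granule genes (x axis, percent), 1 point per cell, coloured by gate and shaped by class. Diamonds (classes not named Myelo) all lie above 10.1% with granule shares up to 18.7%, and triangles (Myelo-1) lie from 6.45 to 9.34%.

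The balance of the subunits varied less than their sum. Small subunit members held a median of 47.1% of the ribosomal protein TPM in Ly6g high, 46.6% in Ly6g low and 45.4% in CD11b+ cells. The spread was wider in cells with few detected members: the range was 17.8 to 69.6% in the 13 Myelo-4 cells of Ly6g high, which had a median of 42 members detected, and 42.3 to 49% in the 8 Gran cells of CD11b+, which had 82.

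Single members spanned a wide range of levels. Over all cells the highest mean TPM was that of Rps18 (1985), followed by Rpl41 (1944), Rpl9 (1819) and Rps9 (1711). Rps9 and Rps29 were detected in all 127 cells, with 9.86 and 14.9 TPM in their lowest cells. The next members were Rps14, Rpl32, Rps19, Rps25, Rps3a1 and Rps23. At the other end Rpl10l and Rpl39l, paralogs known mainly from testis, were under 1 TPM in every cell. The median member was detected in 105 of the 127 cells.

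In Ly6g high against Ly6g low cells, a gene was called measured when it was detected in 25% or more of the cells in 1 or both gates, and 82 members were. The median log2 ratio of their mean TPM (with 1 TPM added) was -0.61, beside -0.29 over all 3983 measured genes. At least 2-fold lower were 10 of the 82, a smaller share than the 23.7% of all measured genes. At least 2-fold higher were 0 (7.96% of all). Rpl10a and Rpl30 were measured only through Ly6g low. Over the Myelo classes alone 42 of 82 members were 2-fold lower, beside 25.6% of all measured genes. Their median was then -1.02. These Myelo cells are not matched by class. Ly6g low holds 4 Myelo-1 cells, a class absent from Ly6g high, which holds 13 Myelo-4 cells, a class absent from Ly6g low. Within Myelo-2 alone 18 of 81 members were 2-fold lower, beside 19.8% of all measured genes.

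In CD11b+ against Ly6g low cells the median of the 82 measured members was 0.87, beside 0.48 over 4774 genes. At least 2-fold higher were 29 of 82, close to the 30.3% of all measured genes, and 0 were 2-fold lower (7.83% of all). Over the Myelo classes alone the direction turned: the median was -0.32, beside -0.12 over all measured genes, with 2 members 2-fold higher and 4 lower, beside 17.4% and 22.3% of all. In CD11b+ against Ly6g high cells the median was 1.48, beside 0.83 over 4447 genes. At least 2-fold higher were 73 of 82 members, beside 44.5% of all, and 0 were lower (6.93% of all). Rpl10a and Rpl30 were measured only through CD11b+. Over the Myelo classes alone the median of CD11b+ against Ly6g high was 0.90, beside 0.27 over all measured genes. The Myelo cells of CD11b+ are not matched by class to those of either Ly6g gate. The 3 gate comparisons share their groups and are not independent.

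**Figure D3:**
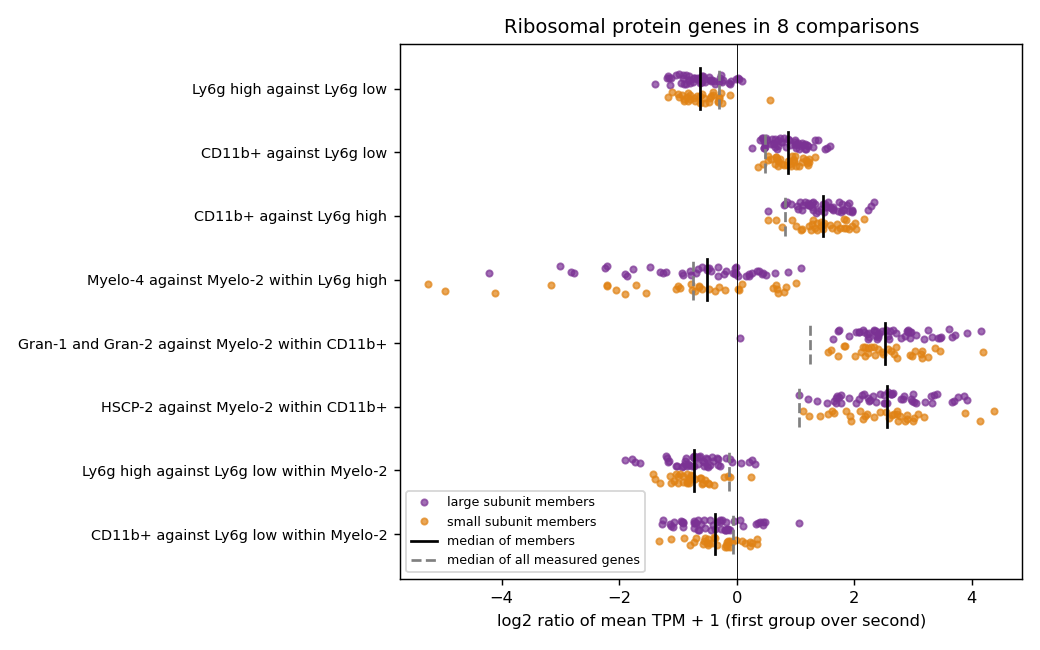
Log2 ratio of mean TPM + 1 (x axis) for each measured ribosomal protein gene in the 8 comparisons (rows), large subunit members in purple and small subunit members in orange. Black lines mark the members' median and dashed grey lines the median of all measured genes. The members' medians run from -0.73 in Ly6g high against Ly6g low within Myelo-2 to 2.56 in HSCP-2.

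The stalk proteins Rplp0, Rplp1 and Rplp2 form the arm of the large subunit that recruits translation factors. Rplp0 had a lowest, median and highest value of 0, 132 and 4646 TPM in Ly6g high, 0, 372 and 2902 in Ly6g low and 0, 1108 and 6134 in CD11b+ cells. Rplp1 stood at 0, 13.8 and 2527 TPM, at 0, 271 and 2374, and at 0, 460 and 3666 in the same order. Its cells overlapped over the whole range in all 3 gates, but it was detected in 58.7% of Ly6g high, 95.1% of Ly6g low and 82.5% of CD11b+ cells. Rplp1 had the lowest ratio of all measured members in Ly6g high against Ly6g low (-1.38). Rplp2 had the smallest gap of all measured members in CD11b+ against Ly6g low (log2 ratio 0.27), with gate medians of 142, 371 and 706 TPM. The stalk genes did not keep to 1 ratio: as a share of the summed ribosomal protein TPM, Rplp0 had a log2 ratio of 0.27 and Rplp2 of -0.62 in that comparison.

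Among the other large subunit members, Rpl3, which lies near the peptidyl transferase centre, had medians of 0.46, 572 and 646 TPM in Ly6g high, Ly6g low and CD11b+ cells. Its detection was 41.3%, 85.4% and 95% in the same order. Of its sum in Ly6g high (mean 353 TPM), 51.3% came from 1 cell. The log2 ratio of Ly6g high to Ly6g low was -1.16, and -2.0 without the cell of highest ribosomal protein share in each gate. CD11b+ against Ly6g high gave 2.34, the highest ratio of any member, and 3.36 without these cells. Within the Myelo classes CD11b+ against Ly6g low turned to -0.60 for Rpl3.

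Rpl10a, a protein of the flexible L1 stalk, was detected in 17.4% of Ly6g high, 63.4% of Ly6g low and 75% of CD11b+ cells, with medians of 0, 89.7 and 474 TPM. Rpl14 and Rpl12 had the highest ratios in CD11b+ against Ly6g low, 1.59 and 1.54. The Rpl12 medians were 0, 11.3 and 354 TPM in Ly6g high, Ly6g low and CD11b+, and its ratio was 0.33 within the Myelo classes; that of Rpl14 was 1.0. Rpl9 differed from most: its means were 1457 TPM in Ly6g high and 1415 in Ly6g low (log2 ratio 0.04), although the medians were 787 and 1091. Rpl35a also had nearly equal means, 557 and 521 TPM.

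Among small subunit members, Rpsa, the laminin receptor protein of the small subunit, had medians of 45.4, 415 and 682 TPM in Ly6g high, Ly6g low and CD11b+ cells. It was detected in 58.7%, 90.2% and 95% of them. Rps4x had medians of 1.1, 381 and 943 TPM. Its ratio of CD11b+ to Ly6g low was 1.34 over all cells and -0.33 within the Myelo classes. Rps9 and Rps10 had the smallest ratios of CD11b+ to Ly6g high among small subunit members other than Rps27rt, with log2 ratios of 0.78 and 0.67.

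Rps27a, made as a fusion with ubiquitin, had gate medians of 216, 605 and 1057 TPM. Its log2 ratio of CD11b+ to Ly6g high was 1.48, equal to the list's median. It stood apart from the list's median elsewhere: it was at 0.67 beside -0.51 in Myelo-4 against Myelo-2 within Ly6g high, and at 1.13 beside 2.56 in HSCP-2 against Myelo-2 within CD11b+. Over the alternatives run, the Rps27a ratio ranged from -0.35 to 0.83 in Myelo-4, with a change of sign. In HSCP-2 its range was 0.0068 to 1.45.

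The composition of the list is each member's share of the ribosomal protein TPM summed over all cells of a group. Between gates these pooled shares differed little. Cells not named Myelo gave 44.9%, 29.6% and 78.7% of the sums in Ly6g high, Ly6g low and CD11b+. The pooled shares therefore need not describe the typical cell of a gate. The share was within 1.5-fold for 72 of 82 members in Ly6g high against Ly6g low, for 78 in CD11b+ against Ly6g low and for 71 in CD11b+ against Ly6g high. At least 2-fold in share was 1 member in the first, Rps27rt, and 0 in the others. The picture was different within Ly6g high between Myelo-4 and Myelo-2, where 10 members had a share at least 2-fold higher, 19 had one at least 2-fold lower and 36 of 79 were within 1.5-fold.

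In Myelo-4 (13 cells) against Myelo-2 (27 cells) within Ly6g high, the median over 80 measured members was -0.51, beside -0.75 over 3105 genes. At least 2-fold lower were 24 of 80, fewer in share than the 45.3% of all measured genes, and 2 were higher (13.7% of all). Of the 80 members, 15 were measured only through Myelo-2, with detection under 25% in Myelo-4, so they could only be lower in detection there; Rpl6 and Rpsa are among them, and their values are a description. Rpl6, a protein of the large subunit, had a lowest, median and highest value of 0, 0.32 and 59.6 TPM in Myelo-4 and of 0, 138 and 886 TPM in Myelo-2, and was detected in 3 of 13 and 23 of 27 cells. The log2 ratio of Rpl6 was -4.22.

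Rpsa stood at 0, 0.43 and 68.8 TPM in Myelo-4 and at 0, 126 and 702 TPM in Myelo-2 (3 of 13 and 20 of 27 cells, log2 ratio -4.11). For both Rpl6 and Rpsa all Myelo-4 cells lay under the Myelo-2 median, and the ratios lay between -3.26 and -4.74 in all alternatives run. Both genes were let in only through Myelo-2, where they are higher, so these values are a description and no support. Rps16 had a ratio of -3.16, and Rpl9 had a mean of 180 against 1267 TPM.

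Other members were detected in most of the same cells. Rps9 was detected in all 13 and all 27 cells, at 53.1, 444 and 3697 TPM in Myelo-4 and 199, 932 and 2690 TPM in Myelo-2, with overlapping ranges. Rps29 was detected in all of them, at medians of 231 and 457 TPM (log2 ratio -0.64). Rpl41, the shortest of the ribosomal proteins, had medians of 697 and 658 TPM, and Rpl35a 388 and 386. The highest ratios, those of Rpl22l1 (1.10) and Rps27l (1.01), rested on few cells: 1 cell gave 76.5% and 49% of their Myelo-4 sums, and the ratios were -0.51 and -0.32 on the mean of log2 values.

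The number of detected genes moved with this contrast: the median cell had 1318 detected genes in Myelo-4 and 2030 in Myelo-2, and 42 against 64 members detected. Granule genes took 61.4% and 59.6% of TPM. Across the 80 members the log2 ratio had a Spearman correlation of -0.34 with transcript length, and across all measured genes with a length it was -0.02. The part of this in the low members was not tested; without the 25% of cells with the fewest genes in each class, Rpl6 was at -3.65 and Rpsa at -3.81. In the 3 Myelo-4 cells of the CD11b+ gate, Rpl6 stood at 3.89, 22.6 and 559 TPM and Rpsa at 0, 126 and 1195 TPM. The highest of these values lay above every Myelo-4 cell of Ly6g high. The 3 cells include cell 46, with 4.85% granule TPM, a ribosomal protein share of 15% and 77 members detected. The shares of the others were 1.80 and 1.38%.

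Within CD11b+, the cells of the classes Gran-1 and Gran-2 had higher primary granule markers (Mpo, Elane, Prtn3 and Ctsg) than Myelo-2 cells. The median log2 ratio of these markers was 8.13. In these 8 cells against the 14 Myelo-2 cells within CD11b+, the median of 82 measured members was 2.52, beside 1.26 over 6679 genes. At least 2-fold higher were 81 of 82, beside 55.4% of all measured genes, and 0 were lower (11.8% of all). Among the 81, Rpl30 was measured only through the Gran cells, the group where it is higher. Rps12 stood at 970, 1518 and 5553 TPM in the Gran cells and at 0, 54.8 and 559 TPM in Myelo-2, without overlap, and had the highest ratio (4.20). Rpl39, Rpl12 and Rplp1 followed at 4.16, 3.92 and 3.71. Their lowest Gran cells, at 699, 569 and 1056 TPM, lay above their highest Myelo-2 cells, at 429, 486 and 432 TPM. The member under 2-fold was Rpl7l1 (99.7 against 96.2 TPM, 0.05), a gene of ribosome assembly named after Rpl7, which was -1.01 with granule genes taken out of the total.

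HSCP-2 cells (5) against Myelo-2 cells (14) within CD11b+ gave a median of 2.56, beside 1.06 over 4453 genes. All 82 measured members were at least 2-fold higher, beside 51.1% of all measured genes, and 0 were lower (28.3% of all). Among them Rpl30 was measured only through HSCP-2, detected in 40% of those cells and 14.3% of Myelo-2 cells. The filter thus let Rpl30 in only through the group where it is higher. The highest ratios were those of Rps24 (4.38), Rps15 (4.15), Rpl39 (3.93) and Rps18 (3.89). A single cell, cell 21, with 48 members detected where the other 4 had 80 or 81, gave 84.8% of the Rps24 sum, 80.2% of that of Rps15 and 67.5% of that of Rps18. Without the 25% of cells with the fewest genes, which takes out cell 21, the ratios were 2.03, 2.37 and 2.41, while Rpl39 was at 4.83. With granule genes taken out of the total the list's medians were 1.45 in HSCP-2 and 1.63 in the Gran cells.

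Within the largest class, Myelo-2, Ly6g high against Ly6g low gave a median of -0.73 for 81 measured members, beside -0.13 over 3911 genes. At least 2-fold lower were 18 of 81, close to the 19.8% of all measured genes, and 0 were higher (13.1% of all). Rpl10a was measured only through Ly6g low. Without the Myelo-2 cell of Ly6g low that had 22% granule TPM, the median was -0.48 and 7 members were 2-fold lower, beside 17.8% of all measured genes. The lowest ratios were those of Rpl3 (-1.91), Rpl22 (-1.78), Rpl10 (-1.73) and Rplp1 (-1.64). The Rpl3 medians were 1.24 and 502 TPM, with the gene detected in 55.6% and 83.9% of cells. Rpl9 (0.31), Rpl35a (0.27) and Rps16 (0.24) were the highest.

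CD11b+ against Ly6g low within Myelo-2 gave a median of -0.36 for 81 measured members, beside -0.07 over 4063 genes. Of these 8 were at least 2-fold lower and 1 higher, both below the 23.4% and 17% of all measured genes. Rps26 (-1.32), Rpl27 and Rpl39 (both -1.26) were the lowest, and Rpl7l1 (1.07) the highest. Without the same Ly6g low cell the median was -0.13, with 3 members lower and 2 higher, beside 21.2% and 18.1% of all measured genes.

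Paralogs did not follow their partners alike. Rpl22l1 had a higher mean than Rpl22 in each gate, 137 against 16.5 TPM in Ly6g high, 136 against 38.5 in Ly6g low and 335 against 53.7 in CD11b+. In Ly6g high 12 cells had Rpl22l1 alone, 4 had Rpl22 alone, 9 had both and 21 had neither. Rps27l, a p53-responsive relative of Rps27, had medians of 0, 63.8 and 296 TPM. Rps19bp1 was detected in 10.9%, 9.76% and 7.50% of cells and was not measured by the rule in the gate comparisons, and Rpl3l and Rps4l were rare as well.

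Rps27 and Rps27rt cannot be separated with confidence. In the GENCODE transcripts, 321 of the 350 stretches of 25 bases in Rps27rt (91.7%) also occur in Rps27, so the split of their reads is uncertain. Rps27rt means were 622, 418 and 901 TPM and Rps27 means 447, 558 and 1048 TPM in Ly6g high, Ly6g low and CD11b+. In Ly6g high cells 26 had Rps27rt alone, 6 had Rps27 alone and 14 had both. Their sum was 1069, 976 and 1949 TPM, with log2 ratios of 0.13 for Ly6g high and 1.0 for CD11b+ against Ly6g low. The higher Rps27rt in Ly6g high (0.57) was -0.19 on the mean of log2 values. By the same measure Rps27l, Rpl36al and Rpl7l1 had 0 stretches in common with their partners, and Rpl22l1 had 0.379%. The 7 rows named as pseudogenes, left out of the list, were led by Rpl34-ps1, with means of 229, 326 and 464 TPM.

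Ribosomal protein genes varied together over cells. The Spearman correlation of each measured member with the summed share of the others had a median of 0.67 over all 127 cells, from 0.17 for Rps27rt to 0.77 for Rps29 and Rps6. It was above 0.5 for 77 of 82 members. The median was 0.78 in CD11b+ and 0.63 in Ly6g low, but 0.36 in Ly6g high and 0.37 within Myelo-2. Over all cells the median of the other genes was 0.22. Among the non-members most like the summed share were Ly6e (0.74), Gnb2l1 (0.73), which encodes the ribosome-bound scaffold Rack1, the elongation factor Eef1a1 (0.71), Set (0.68), Nme2 (0.68), Nkg7 (0.67) and the cyclophilin Ppia (0.66). The most opposite were Ltf (-0.81), Ifitm6 (-0.71), S100a9 (-0.70) and Lcn2 (-0.70), of which Ltf and Lcn2 are secondary granule genes. All these correlations are over cells that share gates and a fixed TPM total.

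Genes that work with the ribosome were set beside its proteins. Of 16 translation factors measured, 7 were at least 2-fold higher in CD11b+ than in Ly6g low (median log2 ratio 0.69), 11 were higher than in Ly6g high (1.33) and 4 were lower in Ly6g high than in Ly6g low (-0.38). The shares of all measured genes were 30.3%, 44.5% and 23.7% in the same order, and the 4 of 16 lower in Ly6g high is close to the last. Eef1a1 had means of 1593, 2050 and 5693 TPM in Ly6g high, Ly6g low and CD11b+ cells. Among ribosome assembly genes, the nucleolar protein Npm1 had means of 294, 349 and 1370 TPM, and medians of 0.375, 160 and 510 TPM. The rRNA methyltransferase Fbl had means of 1.04, 16.2 and 47.3 TPM. The Fbl median was 0 in each gate, with detection in 8.70%, 26.8% and 32.5% of cells.

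Diamond-Blackfan anaemia, a failure of red cell production, is caused by loss of 1 copy of a ribosomal protein gene. The 19 members on the list of its genes were all measured. In Ly6g high against Ly6g low their median was -0.54, beside -0.61 for all measured members, with 1 gene 2-fold lower. In CD11b+ it was 0.75 against Ly6g low (4 of 19 higher) and 1.35 against Ly6g high (17 of 19 higher), beside 0.87 and 1.48 for the whole list. Of all measured genes 23.7% were lower in the first comparison, and 30.3% and 44.5% higher in the others, so the 4 of 19 lay below that share. Rps19, the gene most often affected, had a lowest, median and highest value of 0, 374 and 7145 TPM in Ly6g high, 138, 730 and 5654 in Ly6g low and 0, 1974 and 10035 in CD11b+ cells. Rpl5 had medians of 69.9, 191 and 627 TPM and Rpl11 of 87.9, 398 and 622 TPM. The cells of the 3 gates overlapped for each of these genes.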

How the data were processed

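Single cell RNA sequencing of 127 sorted bone marrow cells was used. Bowtie2, RSEM and the build mm9 are named in the submitters' processing notes. Not given in the sources used here are their versions and the annotation. The authors deposited 23946 genes as log2 values, read here as log2(TPM + 1), because the back-transformed TPM summed to between 999633 and 1005380 in every cell. TPM keeps no depth, so no interval is given. A second deposited file gives the class names. Columns with no matching sample numbered 0.

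The members and gene lists were chosen with earlier results of these data known. Shares of TPM were summed per cell. Groups were compared as the log2 ratio of mean TPM after adding 1 TPM, among genes detected (1 TPM or more) in 25% or more of the cells in 1 or both groups, and 2-fold ratios were counted beside all such genes. SDs are over cells. With 1 sample per gate, no p-value was computed. Named genes were the 10 members of highest mean, stalk, ubiquitin fusion and paralog members, Rps19, Rpl5 and Rpl11, and the 5 highest and 5 lowest ratios per comparison among members with at least 10 TPM in either group; other members named (Rps29, Rpl41 and Rpl35a in Myelo-4, and Rpl6 in detection) were added after their values were seen. Some genes that the rule named are left out of the text. Of the granule genes, 34 of 36 were in the table. The calculation was tested on simulated data. Alternatives changed the mean, pseudocount (0.1 or 10 TPM), filter, total, cells and members. Python 3.11.15, pandas 2.3.3, numpy 2.4.6 and matplotlib 3.10.9 were used.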

Additional observations from a re-analysis of the deposited data

Results flagged for a closer look

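In 10 groups of 4 to 10 cells, the highest or lowest cell was compared with the rest by its gap to the nearest cell over the group's range (Dixon's criterion). Chance alone marks about 1 in 20 such groups, and 2 were marked. The small subunit members took 72.4% of the ribosomal protein TPM in cell 21 of the CD11b+ gate, an HSCP-2 cell, where the other 4 HSCP-2 cells of that gate ranged from 40.2 to 46.1%. This cell had 1566 detected genes and 48 detected members, and Rps18 (31443 TPM) and Rps24 (15816 TPM) were its highest small subunit genes. The ribosomal protein share was 8.30% in cell 35 of the CD11b+ gate, a Myelo-3 cell, where the other 3 Myelo-3 cells of that gate ranged from 2.14 to 2.32%. It had 821 detected genes, the fewest of all 127 cells, and 44 detected members. Why these cells stand apart was not tested.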

How the results depend on the processing

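No paired analysis was possible because each result comes from no test and the cell numbers in the labels only name cells. The restriction to Myelo classes for gate ratios, the removal of Myelo cells with under 25% granule TPM and the addition of pseudogene rows were chosen after seeing the data. Over the alternatives 96 summary values moved by 1.5-fold or less and 17 by more; the cause was not tested. With the mean of log2 values the members' median log2 ratio was -2.0 in Ly6g high against Ly6g low, 2.39 in CD11b+ against Ly6g high, -1.90 in Myelo-4 and 3.48 in the Gran cells. With trimmed means CD11b+ against Ly6g high was at 2.18. In Myelo classes only, CD11b+ was at -0.32 against Ly6g low, a change of sign, and 0.90 against Ly6g high. With granule genes taken out, the Gran cells were at 1.63 and HSCP-2 at 1.45. The median shares in Ly6g high, Ly6g low and CD11b+ were then 4.81, 7.49 and 13.8%; means gave 3.32 and 4.93% in the Ly6g gates. In CD11b+ the share was 13.5% without the cells with fewest genes, 2.38% in Myelo classes and 2.49% in Myelo-2. Signs of single members were followed only for a chosen part of the list: the members set for naming and the partners of paralogs. That part also held members not measured by the rule, such as Rps4l and Rps19bp1. Of its 155 ratios of 2-fold or more, 16 changed sign or came to 0 under an alternative, and of 167 smaller ones 70 did. The other members were not followed in this way. The 16 were, in CD11b+ against Ly6g low, Rps27rt (-0.70, log2 mean) and, in Myelo classes only, Rpl3 (-0.60), Rpl32 (-0.45), Rpl5 (-0.39), Rpl7 (-0.32), Rplp0 (-0.17), Rps23 (-0.55), Rps27l (-0.0096), Rps3a1 (-0.013) and Rps4x (-0.33). In Myelo-4 they were Rpl22l1 (-0.51 log2 mean, -0.27 trimmed, -0.43 without the cells with fewest genes) and Rps27l (-0.32, log2 mean), and in HSCP-2 Rps27 (-0.61, log2 mean) and Rpl7l1 (-0.17, granule genes out). In CD11b+ against Ly6g low within Myelo-2 they were Rps4l (0.26 log2 mean, 1.45 trimmed, 1.68 without the cells with fewest genes) and Rps19bp1 (0, trimmed). The number of members 2-fold lower in Ly6g high than in Ly6g low ranged from 7 to 72 (10 as reported), and 2-fold higher in CD11b+ from 2 to 36 against Ly6g low (29) and from 34 to 79 against Ly6g high (73). In Myelo-4 the members 2-fold lower ranged from 22 to 59 (24) and those higher from 0 to 4 (2). Within Myelo-2, the members lower ranged from 7 to 44 in Ly6g high (18) and from 3 to 14 in CD11b+ (8), both against Ly6g low, and those higher in CD11b+ from 0 to 4 (1). TPM keeps no depth, so what depth limits could not be set.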

Other observations

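In the 4 Myelo-3 cells of the CD11b+ gate the small subunit took 36.1, 42.4, 65.4 and 84.6% of the ribosomal protein TPM, with 32 to 44 members detected. Rps16 had a highest value of 11392 TPM and a median of 1560 TPM in these cells, and Rpl26 had 12271 and 333 TPM. The 8 Gran cells of the same gate, with 80 to 83 members detected, ranged from 42.3 to 49%.

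The CD11b+ Myelo-3 cell with the lowest granule share, cell 13 (7.30% of TPM), had a ribosomal protein share of 2.32% and 32 detected members, while the CD11b+ Myelo-4 cell 46, with 4.85% granule TPM, had 15% and 77 members.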
